A study of Auxenochlorella pyrenoidosa with 18 samples.

Results

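The regions described here are the introns that lie in the 5′ untranslated region (5′UTR) of the predicted genes of Auxenochlorella pyrenoidosa strain FACHB-9, a single-celled green alga. For each gene, the transcript with the longest summed coding sequence was used if the models gave it both a start codon and a transcription start. Every gap between neighbouring exons that lay wholly before the first coding base was then a member. Of 10284 gene models, 9209 had both features, 976 had no start codon and 99 had a start codon but no transcription start. In 2339 of the 9209 genes there was at least 1 such intron, and together they held 3191, among 88905 gaps between exons in the whole set of models. The other 6870 genes served as the comparison, as did the first coding introns of the same genes.

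The series itself sequenced messenger RNA of whole cells in 18 libraries, 3 in each of 6 groups. Per the labels, heterotrophic cells grew on glucose and urea and were sampled at 0, 24 and 72 h. After the glucose was used up, the cells were diluted, moved into light and sampled at 2, 8 and 24 h of phototrophy. Values of single libraries were not analysed here, so the results below describe gene structure and compare no growth condition, and the depth of the libraries is unknown here.

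An intron is cut out of the transcript by the spliceosome in the nucleus, and a 5′UTR intron is removed from the stretch between the cap and the start codon, along which the small ribosomal subunit travels before translation begins. Such an intron adds nothing to the protein and has no reading frame to keep. In land plants, 5′UTR introns of some genes are known to raise expression, an effect called intron-mediated enhancement, and in Arabidopsis thaliana they are on average longer than coding introns. They also place the transcription start, and with it the core promoter, farther from the start codon along the chromosome.

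All values come from models that name the gene predictor AUGUSTUS as their source. The file gives a score to introns between coding segments, but 0 of the 3191 5′UTR introns had an intron line or a score of their own. The sources used here do not say what evidence placed them. Positions below are those of the deposited models, counted from 1, on scaffolds whose assembly version the sources do not state either. The models carry no gene names or products, and no sequence was used here.

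A 5′UTR intron was present in 25.4% of the genes with a predicted 5′ end (95% Wilson interval 24.5 to 26.3%). Most of these genes held a single one: 1863 of 2339 genes had 1 intron, 285 had 2, 105 had 3 and 53 had 4. The remaining 33 genes had 5 or more, with a maximum of 20. Both strands were used alike, with 1149 of the 2339 genes on the plus strand (49.1%, 95% Wilson interval 47.1 to 51.1%). Complete models, with a start and a stop codon, made up 96.4% of genes with a 5′UTR intron (95.6 to 97.1%) and 95.9% of genes without (95.4 to 96.3%). Wilson intervals here count genes or introns as independent and cover counting error only.

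Examples are single-intron genes whose intron was close to the median length of all 5′UTR introns, 190 bases. They are 1 from each of the 5 scaffolds with the most genes with a 5′UTR intron. In single-intron genes alone the median was 210 bases, and lengths near 190 were not the most frequent. Model g7414 (scaffold01012, bases 709563 to 719512, minus strand) began with an untranslated exon of 131 bases, followed by an intron of 190 bases between bases 719192 and 719381. After splicing, 10 bases separated that intron from the start codon. Model g91 (scaffold00012, bases 310698 to 313852, plus strand) had a first exon of 107 bases and an intron of 191 bases (bases 310805 to 310995) that ended 2 bases before the start codon. In g4683 (scaffold00629, bases 578464 to 581657, minus strand) an exon of 130 bases preceded an intron of 189 bases (bases 581339 to 581527), 17 bases from the start codon. In these 3 genes nearly the whole untranslated leader lay in an exon of its own, and the intron sat directly before the coding sequence.

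The other pair had more of the leader downstream of the intron. Model g3898 (scaffold00514, bases 1060337 to 1065236, minus strand) had an intron of 192 bases (bases 1064991 to 1065182) between 54 untranslated bases upstream and 84 downstream. Model g3193 (scaffold00366, bases 2375272 to 2378749, minus strand) began with an exon of only 5 bases, then an intron of 188 bases (bases 2378557 to 2378744) and 131 further untranslated bases. All 5 leaders had similar spliced lengths, between 109 and 147 bases, and differed in where the intron cut them.

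**Figure D1:**
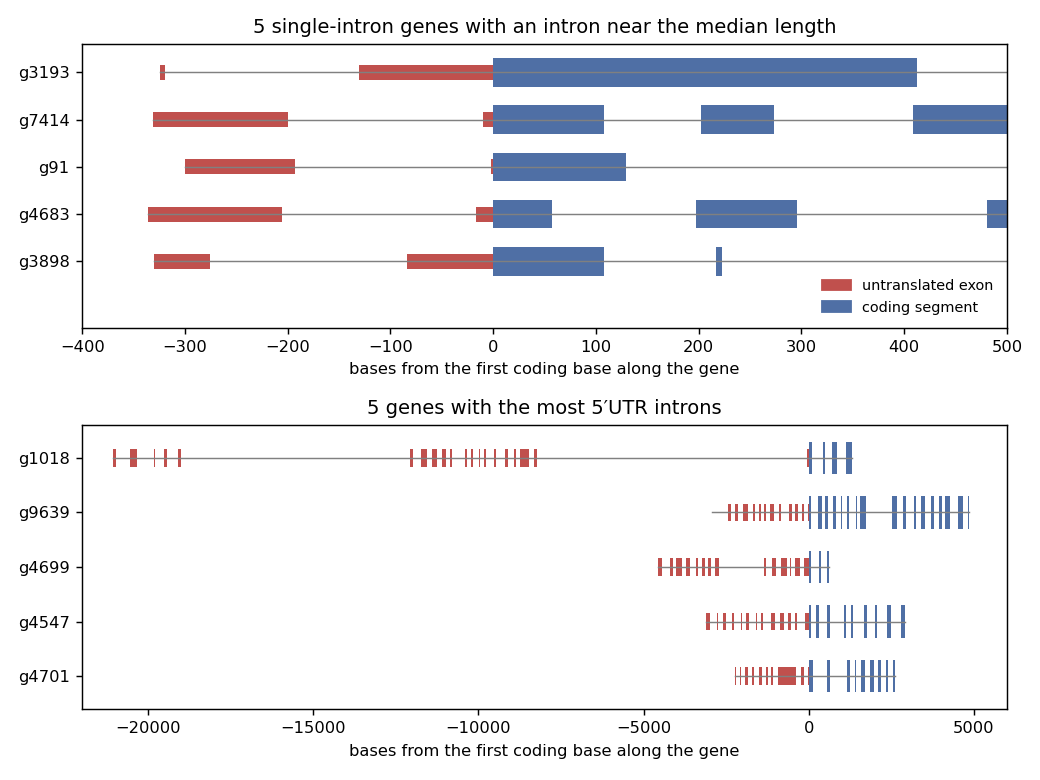
Exon structure of 10 genes with 5′UTR introns, drawn to scale as bases from the first coding base along the gene (x axis), with untranslated exons as low red boxes, coding segments as tall blue boxes and introns as grey lines. In the upper panel each of 5 single-intron genes has 1 intron of 188 to 192 bases before the start codon and the view stops 500 bases after it; in the lower panel, at a much wider scale, 9 to 20 introns precede the start codon.

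The nearest 5′UTR intron usually lay close to the start codon. Counted in spliced bases, its median distance was 25 bases (95% interval 22 to 27, n = 2339 genes), and 90% of the distances lay between 1 and 182. It was under 20 bases away in 44.4% of these genes (95% Wilson interval 42.4 to 46.4%), under 50 in 68.3% (66.4 to 70.2%) and under 100 in 85.4% (83.9 to 86.8%). In 69 genes the distance was 0, so that the coding sequence began at the first base of an exon. At the other end, the first 5′UTR intron followed a median of 65 bases of first exon (63 to 68), and the shortest such exon had 3 bases.

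Because a long leader offers more positions, introns were also counted per position, as the number of introns at a given spliced distance divided by the number of genes whose transcript reaches that distance. The 20 positions next to the start codon held 5.65 introns per 1000 positions (95% Wilson interval 5.31 to 6.0, 1038 introns). At 20 to 39 bases the value was 2.70 (2.46 to 2.96), and at 40 to 59 bases it was 2.24 (1.99 to 2.51). Farther upstream, out to 199 bases, it stayed between 2.24 and 2.86. On the coding side the first 20 bases held 5.14 per 1000 (4.83 to 5.48), and windows from 101 to 300 coding bases held 6.38 to 6.92. The last untranslated bases thus carried introns about as densely as the first coding bases, and the leader beyond them less densely.

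The higher value next to the start codon was also present where short leaders were left out. In the 3393 genes with at least 100 spliced untranslated bases, the value was 6.48 per 1000 within 20 bases (95% Wilson interval 5.91 to 7.12), 3.89 at 20 to 39 bases (3.45 to 4.39) and 2.70 at 80 to 99 bases (2.33 to 3.12). Scaffolds were compared over leaders of all lengths, short ones included. Of the 27 scaffolds with at least 100 genes with a predicted 5′ end, 26 had more introns per position within 20 bases than at 40 to 59 bases. The exception was scaffold00704, with 4.09 and 4.25 per 1000. The windows were chosen after the values had been seen, so no test is given.

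**Figure D2:**
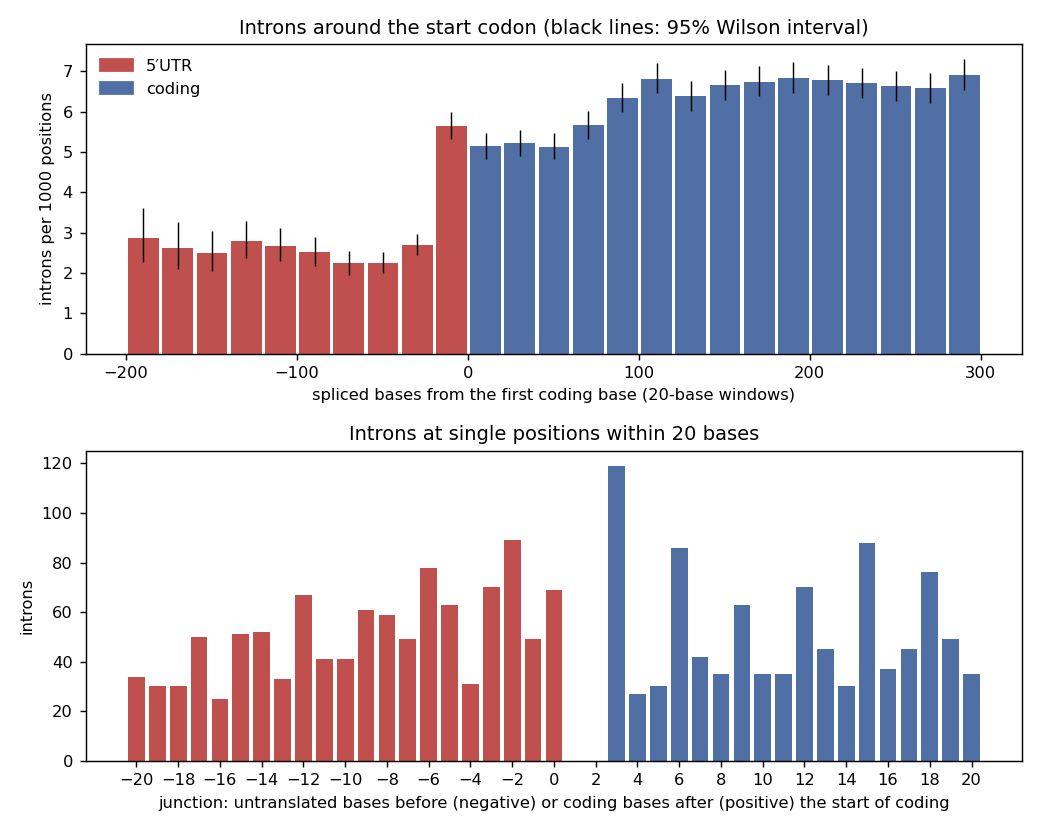
Introns around the start codon in 9209 genes: the upper panel gives introns per 1000 positions in windows of 20 spliced bases (black lines, 95% Wilson interval), the lower panel the number of introns at each single position, where a negative position counts untranslated bases between intron and start codon and a positive one counts coding bases before the intron. The window next to the start codon stands at 5.65 against 2.24 to 2.86 in windows farther upstream; coding positions show a peak every 3 bases, and the positions 1, 4, 7, 13 and 16 bases before the start codon hold fewer introns than both of their neighbours.

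Position by position, 5′UTR introns near the start codon followed a 3-base pattern. In the 1070 genes whose nearest 5′UTR intron lay 0 to 20 bases away, a range with equal numbers of positions of each kind, the distance was a multiple of 3 in 39.8% (95% Wilson interval 36.9 to 42.8%). The remainder after division by 3 was 2 in 36.1% (33.3 to 39.0%) and 1 in 24.1% (21.6 to 26.8%), where equal use would give 33.3% each. Single positions show the same: 78 introns lay 6 bases before the start codon and 63 lay 5 bases before it, but 31 lay 4 bases before it. Remainder 1 was less frequent than remainder 0 on 24 of the 27 scaffolds with at least 100 genes and as frequent on 1, and it was less frequent than remainder 2 on 19 of them.

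In the coding sequence, introns within 20 bases of the start codon fell between codons in 53.0% of 943 genes (95% Wilson interval 49.8 to 56.2%), after the first base of a codon in 24.8% (22.2 to 27.7%) and after the second in 22.2% (19.6 to 24.9%). No intron split the start codon, and 119 lay directly after it. If the reading frame were extended upstream, remainder 0 would be a position between codons, remainder 2 one after the first base and remainder 1 one after the second base. In that order the 5′UTR shares were 39.8, 36.1 and 24.1%. Farther out, the shares of remainders 0, 2 and 1 were 40, 30.4 and 29.6% of the 540 genes with the nearest intron 21 to 50 bases away, and 37.0, 33.9 and 29.1% of the 729 genes with it at 51 bases or more. The 852 whole exons between 5′UTR introns were a multiple of 3 long in 38.5% (35.3 to 41.8%).

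The median length of a 5′UTR intron was close to that of a first coding intron, but lengths near the median were not the most frequent. Among 5′UTR introns, 3.13% had 190 to 199 bases and 9.53% had 120 to 129. The median 5′UTR intron had 190 bases (95% interval 183 to 195, n = 3191), and the first coding intron of the same genes had 202 (198 to 205, n = 2290, since 49 genes had no coding intron). Within genes, the mean log2 length of the 5′UTR introns exceeded that of the first coding intron in 51% of 2290 genes (95% Wilson interval 49 to 53%). Scaffolds were then taken as the units of the test, because neighbouring genes are not independent. Over the 48 scaffolds with at least 10 genes of each kind, which held 2151 of the 2339 genes, the median within-gene difference was 0.016 on the log2 scale (95% interval -0.04 to 0.06). It was above 0 on 27 scaffolds and below 0 on 20 (exact sign test, two-sided, adjusted p = 0.477).

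The 5′UTR introns held larger shares than first coding introns in a class of short and in a class of long introns. Among 5′UTR introns, 30.1% had 100 to 139 bases (95% Wilson interval 28.6 to 31.8%), against 11.6% of the first coding introns of the same genes (10.3 to 12.9%) and 16.5% of those in genes without a 5′UTR intron (15.7 to 17.4%). At the long end, 9.71% of 5′UTR introns had at least 1000 bases (8.74 to 10.8%), against 0.524% (0.30 to 0.914%) and 0.323% (0.213 to 0.488%). Of all 80183 coding introns of genes with a predicted 5′ end, 1.65% (1.57 to 1.74%) were as long, a larger share than of first coding introns. Under 100 bases the shares were 3.32% of 5′UTR introns, 2.88% of the first coding introns of the same genes and 6.35% of those in genes without. The middle range of 150 to 299 bases held 36.8% of 5′UTR introns (35.1 to 38.4%), against 64.8% (62.8 to 66.7%) and 56.3% (55.1 to 57.5%). With scaffold means in place of medians the within-gene difference was 0.29 (0.21 to 0.43), above 0 on 42 of 48 scaffolds (exact sign test, two-sided, adjusted p = 3.36e-07). Without genes that held a 5′UTR intron of at least 1000 bases it was -0.13. That setting leaves genes out by the length of their 5′UTR introns only. This favours a lower difference, so its sign test is not read as a result. The median difference was also below 0 where coding scores averaged 0.95 or more (-0.071) and with leaders of at least 50 bases (-0.046), so the data give no stable sign.

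Both excesses were spread over the genome. All 27 scaffolds with at least 100 genes had a higher share of introns of at least 1000 bases among 5′UTR introns (4.0 to 18.2%) than among the first coding introns of the same genes (at most 3.45%). The share of 100 to 139 bases was higher among 5′UTR introns on 26 of them, between 15.3 and 41.7%. Scaffold01279 was the exception, at 20% against 21.2%. The length classes were chosen after the lengths had been seen, and these counts are a description.

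**Figure D3:**
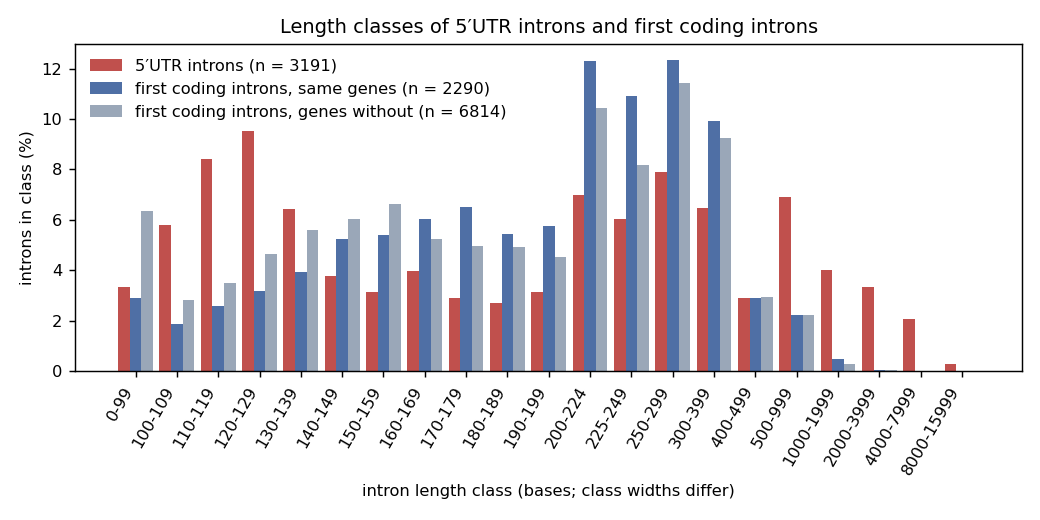
Share of introns (y axis, percent) in classes of length (x axis, bases, with classes of unequal width) for 5′UTR introns, the first coding introns of the same genes and the first coding introns of genes without a 5′UTR intron. The 5′UTR introns exceed both sets of coding introns in every class from 100 to 139 bases and in every class from 500 bases up, and are fewer between 150 and 299 bases.

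The longest 5′UTR introns were longer than any coding intron of these genes, whose maximum was 6445 bases. Model g9187 (scaffold01211, bases 557311 to 571655, plus strand) held the longest, of 12417 bases between bases 558177 and 570593. It was the last of 4 introns in the leader and ended 26 spliced bases before a coding sequence of 423 bases. Model g9400 on the same scaffold (bases 1722453 to 1736648, minus strand) held an intron of 10721 bases (bases 1724934 to 1735654), the fifth of 6. These introns put the predicted transcription start 13309 and 12000 bases from the start codon.

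The next longest were also in genes with several 5′UTR introns. Model g3449 (scaffold00366, bases 3678781 to 3692954, minus strand) had an intron of 9887 bases (bases 3682524 to 3692410) as the last of 3. Model g4033 (scaffold00514, bases 1931533 to 1949917, plus strand) had one of 9725 bases (bases 1937627 to 1947351), the fifth of 6. Model g7151 (scaffold01003, bases 944033 to 959536, minus strand) had one of 9588 bases (bases 949360 to 958947), the last of 4. The first coding introns of these 5 genes measured 98 to 231 bases. Their gene scores were 0.02 to 0.09, at or below the median of 0.09 over all genes with a 5′UTR intron.

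Long 5′UTR introns were not confined to such genes. At least 1000 bases were reached by 310 introns in 304 genes, and among single-intron genes the share was 9.07% (95% Wilson interval 7.85 to 10.5%, n = 1863). Of the 310, 282 (91.0%, 87.3 to 93.7%) were the intron nearest the start codon, as were 73.3% of all 5′UTR introns (71.7 to 74.8%), since a single intron is always the nearest. In genes with 2 or more 5′UTR introns, 113 of 141 long introns were the nearest (80.1%, 72.8 to 85.9%), against 35.8% of all introns of those genes (33.3 to 38.5%). In single-intron genes the share of such long introns was 13.3% (10.6 to 16.5%, n = 497) where the intron lay under 10 bases from the start codon and 14.9% (11.5 to 19%, n = 349) at 10 to 19 bases. It was 6.36% (4.44 to 9.04%, n = 440) at 20 to 49 bases and 4.28% (2.52 to 7.18%, n = 304) at 50 to 99 bases. Of first coding introns equally close to the start codon, 0 of 402 were as long at fewer than 10 coding bases (95% Wilson interval up to 0.947%) and 1 of 507 at 10 to 19.

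Introns of 100 to 139 bases followed the opposite order. Their share in single-intron genes was 16.5% (95% Wilson interval 13.5 to 20%) under 10 bases from the start codon and 30.6% (25.7 to 36.0%) at 50 to 99 bases. It was 38.0% (28.1 to 49%) in the 79 genes with the intron at 200 bases or more. Median length accordingly stood at 249 bases (227 to 269) nearest the start codon and at 149 (133 to 179) in the farthest class. Across the 1863 single-intron genes, Spearman's rho between distance and length was -0.19, given as a description over genes that share scaffolds. The length of the 5′UTR intron said little about that of the first coding intron, with a rho of 0.06 over 1830 genes.

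In the 304 genes with a 5′UTR intron of at least 1000 bases, the deposited score of the first coding segment had a median of 0.92 (95% interval 0.88 to 0.95), against 0.97 (0.97 to 0.98) in all 2339 genes with a 5′UTR intron. Of the 304, 302 were complete. The part of prediction quality in the long tail was not tested. Where the coding segments of a gene averaged a score of 0.95 or higher, the share of introns of at least 1000 bases was 7.95%.

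The shortest 5′UTR introns were under 60 bases. They were those of g3774 (scaffold00514, 46 bases between 359959 and 360004), g2733 (scaffold00315, 48 bases, 730 to 777), g6406 (scaffold00902, 51 bases, 1035634 to 1035684), g1283 (scaffold00092, 53 bases, 1270081 to 1270133) and g7327 (scaffold01012, 58 bases, 172246 to 172303). All 5 were the only intron of their leader. The shortest coding intron of the genes compared had 41 bases.

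In the 5 genes whose nearest intron lay farthest from the start codon, a long unbroken stretch of leader followed it. In g1962 (scaffold00178, bases 700275 to 705681, minus strand) the nearer of 2 introns, of 112 bases (bases 705388 to 705499), lay 789 spliced bases from the start codon. In g1013 (scaffold00068, bases 57736 to 61700, plus strand) an intron of 185 bases (bases 58196 to 58380) lay 702 bases away. In g9458 (scaffold01211, bases 2033485 to 2037529, plus strand) a single intron of 143 bases (bases 2033598 to 2033740) lay 651 bases away. The remaining introns, at 525 bases in g8066 (scaffold01094, bases 38641 to 38745) and 520 bases in g9100 (scaffold01210, bases 421902 to 422034), measured 105 and 133 bases. None of the 5 exceeded 185 bases.

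The 5 genes with the most 5′UTR introns had leaders of over 1000 spliced bases, and 4 of them had a coding sequence shorter than the median of 1005 bases over all genes with such an intron. Model g1018 (scaffold00068, bases 89410 to 111980, minus strand) had the most, 20, in a spliced leader of 1998 bases before a coding sequence of 552 bases. Its introns measured 110 to 8168 bases and summed to 19060, and the longest, between bases 90988 and 99155, was the nearest to the start codon. Model g9639 (scaffold01246, bases 611568 to 619420, minus strand) had 14 introns of 96 to 342 bases before a coding sequence of 1584 bases. Here none of the 14 introns reached 1000 bases.

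Models g4699 (bases 643664 to 649317, minus strand) and g4701 (bases 654763 to 659751, plus strand) lay close together on scaffold00629. Model g4699 had 13 introns in a leader of 1537 bases, before only 204 coding bases. Model g4701 had 9 in a leader of 1106 bases, before 780 coding bases. Model g4547 (scaffold00600, bases 442665 to 448868, minus strand) had 12, of 120 to 237 bases, in a leader of 1075 bases before 786 coding bases. In g4547 and g4699 the first coding segment had a score of 0.21 and 0.4, low in the range over all genes with a 5′UTR intron, whose 5th percentile was 0.46. The score was 0.65 in g4701, 0.76 in g1018 and 1 in g9639.

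Over all genes with a 5′UTR intron, classes with more introns had lower medians of coding length. The median was 1023 bases (95% interval 969 to 1056) in genes with 1 intron, 1008 (882 to 1173) with 2, 930 (783 to 1065) with 3 and 774 (477 to 1011) with 4. It was 735 (453 to 1107) with 5 or more, and the intervals of neighbouring classes overlap. Spliced leaders measured 106, 212, 294, 399 and 640 bases in the same classes, which is partly given by construction, since each further intron needs an exon of its own. The whole untranslated exons between introns had a median of 77 bases (74 to 82, n = 852). Introns of 100 to 139 bases made up 22.9% in single-intron genes (95% Wilson interval 21.1 to 24.9%) and 40.3% in genes with 2 or more (37.7 to 42.9%).

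Compared with the other 6870 genes, those with a 5′UTR intron had a longer spliced leader. Its median was 127 bases (95% interval 122 to 131) against 63 (62 to 65). Over 48 scaffolds the leader was 1.99 times as long (1.86 to 2.12), and it was longer on all 48 (exact sign test, two-sided, adjusted p = 3.55e-14). A longer leader has more room for an intron, and an intron needs leader exon before it. The direction was thus partly given by construction. The comparison cannot separate this from a trait of the genes, and the p-value is no evidence for one. Together with the introns, the predicted transcription start lay a median of 404 bases from the start codon along the scaffold (392 to 419), with a 95th percentile of 3353 bases. In genes without a 5′UTR intron it lay 63 bases away, with a 95th percentile of 217.

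The share of genes with an intron varied with the length of the leader. It was 11.6% (95% Wilson interval 10.4 to 13.0%) for 25 to 49 spliced bases, 34.5% (32.1 to 36.9%) for 100 to 149 and 65.5% (60.2 to 70.5%) for 300 to 499. It was 90.2% (81.9 to 95%, 74 of 82 genes) for 500 and over. The shortest leaders, of fewer than 25 bases, had a share of 22.2% (19.1 to 25.7%), above that of the next class. Leaders without an intron were never shorter than 15 bases, whereas spliced ones went down to 6. Counted over all 9209 genes, leaders held 3.31 introns per kb and coding sequences 6.08. On the 48 scaffolds the median difference was -2.93 introns per kb (95% interval -3.08 to -2.58), with the leader lower on all 48 (exact sign test, two-sided, adjusted p = 3.55e-14).

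**Figure D4:**
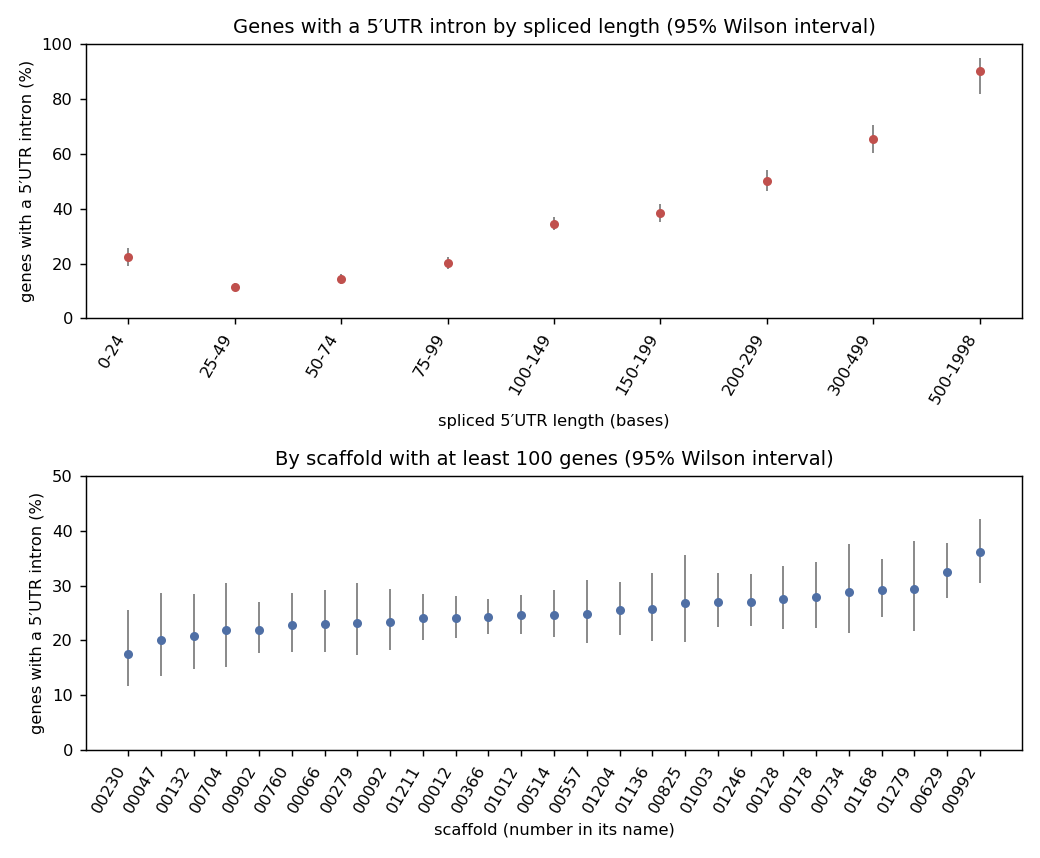
Share of genes with a predicted 5′ end that hold a 5′UTR intron (y axes, percent, points with 95% Wilson intervals), by spliced leader length in the upper panel and by scaffold with at least 100 such genes in the lower panel. The share is lowest, at 11.6%, in leaders of 25 to 49 bases and reaches 90.2% from 500 bases; scaffolds range from 17.5 to 36.1%.

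Scaffolds differed in how many genes had a 5′UTR intron. Among the 27 with at least 100 genes, the share was lowest on scaffold00230 at 17.5% (95% Wilson interval 11.7 to 25.6%, 20 of 114 genes) and highest on scaffold00992 at 36.1% (30.4 to 42.1%, 92 of 255). Scaffold00629 followed with 32.5% (27.7 to 37.7%, 109 of 335), and the median scaffold had 24.6%. The intervals of the lowest and highest do not overlap, and most others overlap one another. The lowest and highest are the extremes of 27 scaffolds, and differences between scaffolds were not tested. Median 5′UTR intron length on these scaffolds lay between 156.5 and 258 bases.

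The coding part of genes with a 5′UTR intron was shorter. Median coding length was 1005 bases (95% interval 954 to 1035), against 1139 (1116 to 1161) in genes without. Over 48 scaffolds the ratio was 0.847 (0.796 to 0.913), lower on 39 and higher on 9 (exact sign test, two-sided, adjusted p = 5.07e-05). The number of coding introns per kb did not pass the test, at 6.39 and 6.4 per kb over all genes, with a difference of -0.17 per kb over scaffolds (-0.36 to 0.14; exact sign test, two-sided, adjusted p = 0.477). Genes that have no coding intron at all carried a 5′UTR intron in 49 of 105 cases (46.7%, 95% Wilson interval 37.4 to 56.2%), against 25.2% (24.3 to 26.1%) of genes with a coding intron.

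The first coding intron differed slightly between the groups. Its median was 202 bases in genes with a 5′UTR intron and 188 (95% interval 186 to 191) in genes without, and over 48 scaffolds it was 1.09 times as long (1.01 to 1.13), longer on 34 and shorter on 13 (exact sign test, two-sided, adjusted p = 0.00618). The coding bases before it did not pass the test, with medians of 106 and 102 bases and a ratio of 1.02 over scaffolds (0.946 to 1.09; exact sign test, two-sided, adjusted p = 0.622). By scaffold means the log2 difference was 0.13 (0.035 to 0.23; exact sign test, two-sided, adjusted p = 0.00788). Its phase was nearly the same in both groups, between codons in 48.1% (95% Wilson interval 46.1 to 50.2%) and 49% (47.8 to 50.2%).

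The exon that holds the start codon is an internal exon in genes with a 5′UTR intron, unless it is also the last. In 2293 such genes its median length was 147 bases (95% interval 141 to 153), and 90% of them lay between 43 and 565 bases. Lengths of 5′UTR introns were a multiple of 3 in 33.2% (95% Wilson interval 31.6 to 34.9%) and those of the first coding introns of the same genes in 32.4% (30.6 to 34.4%). The difference over scaffolds was 2.66 percentage points (-1.83 to 7.04; exact sign test, two-sided, adjusted p = 0.477).

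**Figure D5:**
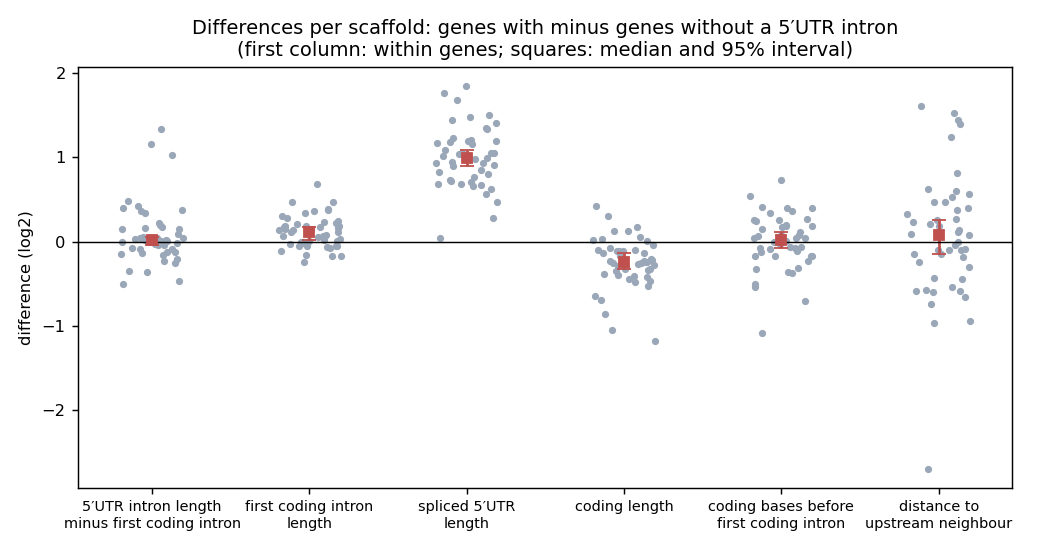
Differences on the log2 scale (y axis) on each of 48 scaffolds (grey points), with their median and 95% interval (red squares and bars), for 5′UTR against first coding introns within genes (first column) and for genes with minus genes without a 5′UTR intron (other columns). Spliced leader length lies above 0 on all 48 scaffolds and coding length below 0 on 39.

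Toward the upstream neighbour, genes with a 5′UTR intron less often stood back to back with a gene on the other strand. The nearest model upstream of the transcription start lay on the other strand for 57.6% of 2296 genes (95% Wilson interval 55.5 to 59.6%), against 66.2% of 6730 genes without (65.1 to 67.4%). Over 48 scaffolds the difference was -5.95 percentage points (-9.66 to -2.39), lower on 34 and higher on 13 (exact sign test, two-sided, adjusted p = 0.00618). Divergent neighbours under 200 bases away were found for 11.6% (10.3 to 13.0%) and 15.7% (14.9 to 16.6%). The distance to the upstream neighbour did not pass the test, with medians of 615 (575 to 651) and 585 bases (555 to 605) and a ratio of 1.06 (0.903 to 1.20; exact sign test, two-sided, adjusted p = 0.771).

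Introns at the other end of the gene were rare in both groups. Where a transcript end was predicted, a 3′UTR intron was present in 4.22% of 2251 genes with a 5′UTR intron (95% Wilson interval 3.46 to 5.13%) and in 3.16% of 6582 genes without (2.76 to 3.61%), and the difference was not tested.

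Transcripts could be compared in only a few genes, and 17 of the 37 with a 5′UTR intron had different ones between transcripts. Of 162 genes with more than 1 transcript, 156 had at least 2 transcripts with a predicted 5′ end, and 37 of these had a 5′UTR intron in at least 1. The intron was present in some transcripts only in 14 genes, and in 3 more all transcripts had 5′UTR introns but not the same ones. In g87 (scaffold00012) one transcript had 3 and the other 0. In g10237 (scaffold01332) the numbers were 3 and 6. Both were named after their values had been seen, for the widest gap.

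No other gene model lay inside a 5′UTR intron. Another model overlapped 12 of the 3191 introns, 4 of them in g9275 (scaffold01211), whose leader runs through the span of g9276 (bases 1089964 to 1094187) on the same strand. The largest was the intron of 6485 bases in g7246 (scaffold01003, bases 1468595 to 1475079), overlapped by g7247 on the same strand. These models were named after their values had been seen.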

How the data were processed

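The deposited file holds predicted gene models of the whole series. AUGUSTUS is their source per the file's second column. TopHat 1.3.3 and Cufflinks are listed for the libraries in the submitters' processing notes. For AUGUSTUS the version and evidence, and for the scaffolds the assembly version, are not stated in the sources. The score of each gene, transcript, coding segment and coding intron was deposited by the authors without a description and is used only to describe or filter models. No per-library values were used.

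Models were read with Python 3.11.15, NumPy 2.4.6, SciPy 1.17.1 and Matplotlib 3.10.9. Spliced distances count exon bases only. The distance to the upstream neighbour runs from the transcription start to the nearest model and is 0 where they overlap. In the 10 tests, a value per scaffold (median, pooled density or percent) was compared with an exact two-sided sign test over scaffolds with at least 10 genes with and 10 without a 5′UTR intron, with Benjamini-Hochberg adjustment over the 10. Intervals of medians are exact 95% order-statistic intervals, over genes or introns for plain medians and over scaffolds for differences. Scaffolds are parts of 1 annotation and not biological replicates, so p-values measure the evenness of a difference along the genome. A ratio is 2 to the power of the median log2 difference; spliced leader length and neighbour distance had 1 base added first. The reading of the models and the 10 tests were run on simulated gene models. The counts per position, remainders, length classes, transcript comparisons and overlaps were not. On the simulated models, outcomes were checked for the reading, 5′UTR intron length, first coding intron length, multiples of 3 and divergent neighbours. The other tests were run there without a checked outcome.

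Named models were the 5 with the most 5′UTR introns, those with the 5 longest and the 5 shortest, and the 5 whose nearest intron lay farthest from the start codon. Added to these was 1 single-intron model, nearest the median length, from each of the 5 scaffolds with the most members. The members, lists and tests were chosen with earlier results of these data known. The 12 alternatives fixed beforehand and 2 added after seeing the data are reported at the end.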

Additional observations from a re-analysis of the deposited data

How the results depend on the processing

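The 10 tested results gave 129 values under the alternatives. Direction and call were as reported in 122, a call was gained in 2, the sign reversed in 5, and no call was lost. Of the 5 reversed values, that without genes holding a 5′UTR intron of at least 1000 bases also passed the test. That setting leaves genes out by the length compared, so the value is not read as a call. The setting of scaffolds with an annotated span of at least 100 kb kept the same 48 tested scaffolds. Its 10 tested values are among the 122 and could not differ. The 5 calls on leader length, density, coding length, first coding intron length and divergent neighbours were among those kept under every alternative run. The call on leader length is partly given by construction. The 5′UTR minus first coding intron length was -0.071 log2 units where coding scores averaged 0.95 or more and -0.046 with leaders of at least 50 bases, but 0.29 by scaffold means. It was -0.13 without genes holding a 5′UTR intron of 1000 bases or more, a setting that favours a lower value. With introns of 30 to 2000 bases it was -0.077. That setting cuts the long end almost only on the 5′UTR side. At least 2000 bases were reached by 182 5′UTR introns and by 1 first coding intron of the same genes. By scaffold means the coding bases before the first coding intron differed by 0.13 log2 units. Coding introns per kb differed by 0.029 where coding scores averaged 0.95 or more. The share of genes with a 5′UTR intron was 23.9% with introns of 30 to 2000 bases, 21.3% with exactly 1 intron, 30.8% with leaders of at least 50 bases and 22.9% without the long introns, each by leaving genes out. Median 5′UTR intron length was 178, 210, 182 and 171 bases under the same settings, 206 for the intron nearest the start codon and 246 as a geometric mean. Median distance to the start codon was 33 bases with leaders of at least 50 bases. The share of remainder 1 within 20 bases ranged from 23.9 to 24.9%. No paired analysis was possible because the replicate numbers of the libraries attach to no value used here. The within-gene comparison pairs introns of a gene, not libraries. It is not stated whether sequencing reads, and hence their depth, guided the prediction of leaders.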
